A study of Mus musculus with 9 samples.

Results

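Vegfa, its receptors and co-receptors Flt1, Kdr and Nrp1, the angiopoietin receptor Tek, the co-receptor Eng, and the endothelial surface genes Pecam1, Cdh5 and Plvap were read in blood and in tumour-derived cells of 3 mice. These 9 genes were chosen by name as the endothelial and VEGF axis set, with earlier results of these data known. They had 21 of the 41174 probes on the array, and every probe was included. Of the 9 genes, 7 had a probe that passed the detection filter and were tested among 14253 genes. Tek and Nrp1 did not pass.

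The mice were female Balb/c athymic animals, numbered 832, 833 and 834, a strain that has hardly any T cells because no thymus forms. Each mouse gave blood on day 0, before inoculation, blood on day 10 after Hepa1-6 cells were placed under the skin, and a cell fraction of the day 10 tumour. Hepa1-6 is a mouse hepatoma line, and the fraction was enriched in tumour-infiltrating inflammatory cells (the TIC fraction). Each group therefore held 3 samples on 3 two-colour Agilent arrays, with sample RNA in Cy5 and, in Cy3, a common reference on every array, the RNA of blood from a female C57Bl/6 mouse left untreated. No group came from mice left without tumour cells until day 10, so tumour and elapsed time cannot be told apart.

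VEGF-A is a secreted growth factor that drives the sprouting and permeability of blood vessels, and its gene is induced when oxygen is low. It binds VEGFR1 (Flt1) and VEGFR2 (Kdr) on endothelial cells, of which VEGFR2 carries most of the growth signal and VEGFR1 binds the ligand tightly and is also made by monocytes and macrophages. Neuropilin-1, endoglin and TIE2 modify or run beside this pathway, while PECAM-1, VE-cadherin and PLVAP sit at the junctions and in the membrane diaphragms of vessel walls. Blood holds few endothelial cells, but platelets and leukocytes also make PECAM-1.

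The windows at the annotated start of the ligand gene and of its 2 main receptor genes are shown because these 3 genes make up the core of the VEGF axis. They run from 250 bases before to 50 bases after a start, 5′ to 3′ on the gene's strand, from RefSeq on GRCm38.p6, and the array files use another build. Capitals mark ACGTG (the core of a hypoxia response element), GGAAG (an ETS core with its flank, a motif of many endothelial enhancers) and GGGCGG (a GC box) on either strand, so their reverse complements are in capitals too. No marked motifs overlapped.
Vegfa, chr17:46025114-46025413, minus strand: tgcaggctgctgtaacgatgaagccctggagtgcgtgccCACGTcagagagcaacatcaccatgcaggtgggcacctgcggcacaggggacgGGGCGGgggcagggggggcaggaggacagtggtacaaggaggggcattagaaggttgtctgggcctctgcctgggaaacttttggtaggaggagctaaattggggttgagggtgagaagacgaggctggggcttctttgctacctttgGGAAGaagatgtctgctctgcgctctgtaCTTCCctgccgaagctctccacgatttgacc
Vegfa, chr17:46032328-46032627, minus strand: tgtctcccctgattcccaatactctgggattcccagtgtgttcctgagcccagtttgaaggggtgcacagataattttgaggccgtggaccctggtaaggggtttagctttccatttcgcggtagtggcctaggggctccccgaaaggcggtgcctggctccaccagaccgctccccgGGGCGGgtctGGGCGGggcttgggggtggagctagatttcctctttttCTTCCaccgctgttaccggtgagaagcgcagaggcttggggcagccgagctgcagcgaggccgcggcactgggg
Flt1, chr5:147725962-147726261, minus strand: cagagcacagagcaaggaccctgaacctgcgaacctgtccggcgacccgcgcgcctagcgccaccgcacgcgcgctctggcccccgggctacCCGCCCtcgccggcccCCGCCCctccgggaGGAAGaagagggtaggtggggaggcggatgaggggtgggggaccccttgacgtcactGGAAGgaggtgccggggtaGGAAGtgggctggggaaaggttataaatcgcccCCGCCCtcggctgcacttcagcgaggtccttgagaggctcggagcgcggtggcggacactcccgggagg
Kdr, chr5:75978406-75978705, minus strand: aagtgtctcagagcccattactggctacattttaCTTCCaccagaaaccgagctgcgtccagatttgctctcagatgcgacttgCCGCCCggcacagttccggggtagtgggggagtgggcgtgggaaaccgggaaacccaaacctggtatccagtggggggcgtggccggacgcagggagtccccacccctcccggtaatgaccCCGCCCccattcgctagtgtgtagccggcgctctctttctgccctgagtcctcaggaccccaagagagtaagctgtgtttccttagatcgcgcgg

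Among 32851 windows of this length, 19.6% held ACGTG, 71.4% GGAAG and 35.7% GGGCGG. The first Vegfa window held 1 ACGTG, at position -211 from its start, and the second held none but had 2 GC boxes at positions -72 and -62. On the minus strand the first Vegfa window lies downstream of the second, so its ACGTG is not upstream of both annotated starts but downstream of that of the second window. Whether this stretch lies in an exon was not analysed here. The Flt1 window held 3 GGAAG and 3 GGGCGG, and the Kdr window 1 and 2. These matches describe letters in a window and are neither binding sites nor a cause of the values that follow. Windows of Eng, Tek and Nrp1 were searched as well, so that 7 windows of 6 members were read. The Eng window held 2 GGAAG, the Nrp1 window 4 GGAAG and 1 GGGCGG, and the Tek window none of the 3 motifs. No window was read for Plvap, Pecam1 and Cdh5.

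In net Cy5 intensity, the spot brightness of the sample channel above its local background, most members were not well above background in blood and were above it in the TIC fraction. There only Vegfa, at a mean of 344, exceeded the median of all tested genes, which was 183 in the TIC fraction, 18.7 in day 0 blood and 5.68 in day 10 blood. Of the 21 probes, 17 were well above background on no blood array. Members with a probe above background on at least 1 array numbered 4 in day 0 blood (Flt1, Kdr, Plvap and Pecam1) and 1 in day 10 blood (Pecam1). In the TIC fraction, 6 members (Vegfa, Flt1, Kdr, Eng, Plvap and Cdh5) were above background on all 3 arrays, Pecam1 and Nrp1 on 2, and Tek on none. The TIC arrays lay above every day 10 blood array for 6 of the 7 tested members, as they did for 87.2% of all tested genes, so this count is close to the background. Against day 0 blood it was 5 of 7, beside 75.1% of all tested genes.

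**Figure D1:**
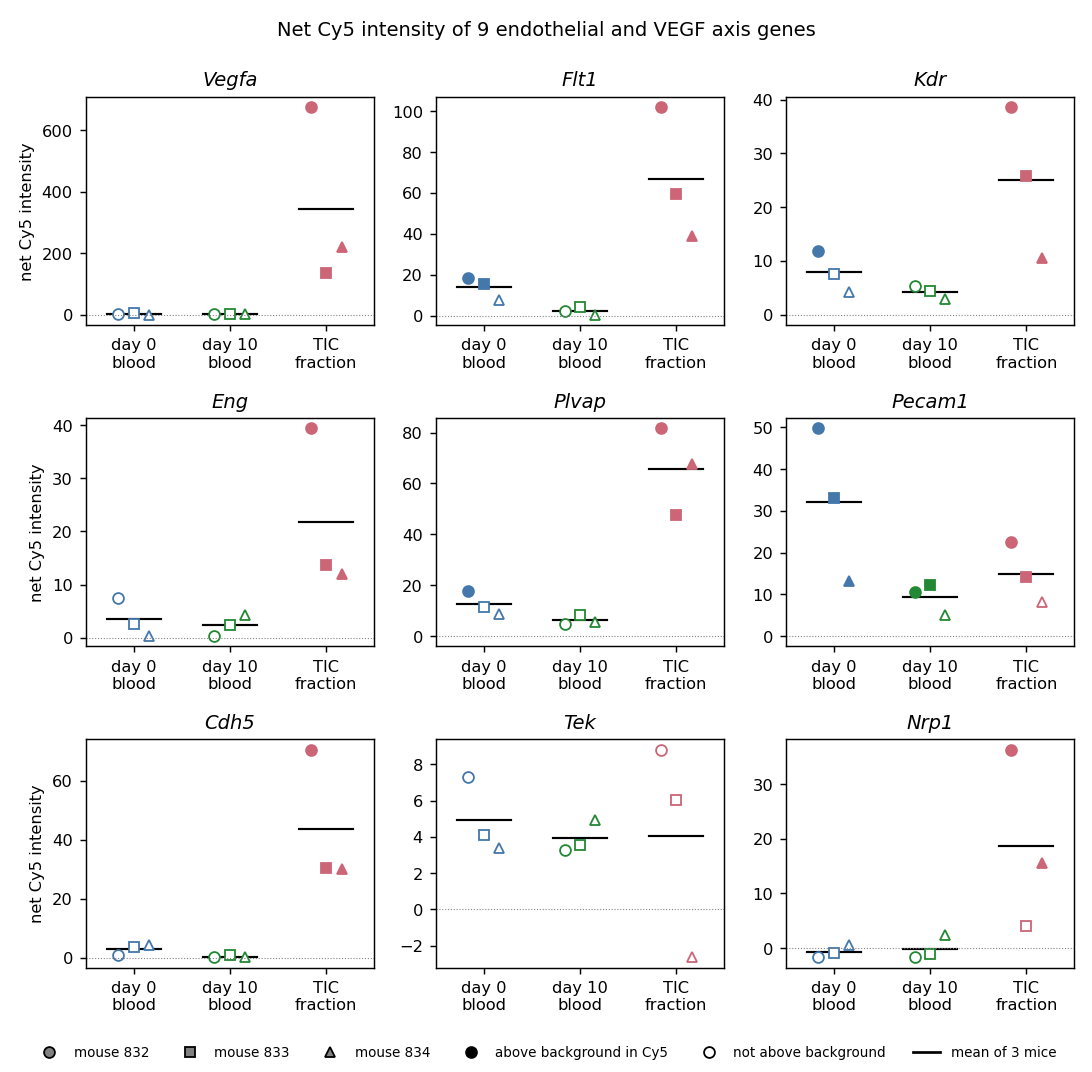
Net Cy5 intensity (linear axis, its own scale in each panel) of 1 probe for each of the 9 genes in the 9 samples, with the mouse given by the symbol, filled where the probe was well above background and open where not, and a line at the mean of 3 mice. Vegfa is open in all blood samples and between 135 and 675 in the TIC fraction, while Pecam1 is brightest in day 0 blood and Tek is open throughout.

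The whole arrays differed in the same way. Spots well above background in the sample channel made up 24.3 to 36.9% in the day 0 bloods, 14.2 to 21% in those of day 10 and 48.2 to 55.1% in TIC samples, with 40.2 to 50.4% in the reference channel. The 75th percentile of net Cy5 was 8.58 to 19.7, 4.79 to 6.62 and 92 to 204 in the same order. A raw intensity therefore cannot be compared between groups without a scaling, and 3 kinds are given below. They are the loess-normalized log2 ratio to the reference, on which the main test was made, Cy5 alone relative to the array's 75th percentile, and the percentile of the probe among all probes of its array. All 3 day 10 bloods lay on 1 slide with 1 day 0 blood, and the TIC arrays on the other 2 slides, 1 of which also held 2 day 0 bloods. No slide held both TIC and day 10 blood arrays, so this comparison is between slides, and within a slide the TIC fraction can be set only against day 0 blood. On these bulk samples, fewer cells of a type and less RNA per cell cannot be told apart.

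Vegfa, the ligand, was the 1 member called higher in the TIC fraction in both comparisons. It passed the detection filter through the TIC arrays alone, the group in which it was high, so the call is against bloods with no measured level and is a description. Its brightest probe (A_51_P482552, chr17:45482144-45482203 on mm8, the build of the array files) is printed 10 times on the array. Net Cy5 was 3.82, 5.46 and 0.821 in the day 0 bloods of mice 832, 833 and 834, 1.59, 1.95 and 1.84 in those of day 10, and 675, 135 and 222 in TIC samples. All 6 blood values were not well above background, all 3 TIC values were, and the groups did not overlap. In its array the probe stood at a median percentile of 39.8 in the day 0 bloods, 42.5 in those of day 10 and 83.2 in the TIC fraction.

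The log2 ratio of Vegfa was -0.03, 0.08 and -0.06 in the day 0 bloods, -0.01, 0.01 and 0.00 in those of day 10, and 0.86, 0.09 and 0.65 in TIC samples. The TIC value of mouse 833 lay just above the highest blood value, and the other 2 stood clear of it. The difference of the TIC fraction was 0.53 ± 0.18 (SE, n = 3 against 3; limma, Benjamini-Hochberg adjusted p = 0.0283) against day 10 blood and 0.54 ± 0.18 (adjusted p = 0.0272) against day 0 blood. As blood gave only a bound, the TIC level was at least 1.95-fold the bound of day 10 blood and at least 1.99-fold that of day 0 blood. These folds were taken from the Cy5 channel after loess and Aquantile normalization, without dye swaps, and are open to dye bias. Here and below they hold on that scale only, and they can exceed the fold of the log2 ratio difference. On each array the bound was the lowest Cy5 signal well above background, or the probe's own signal where that was higher. An adjusted p beside such a fold belongs to the log2 ratio difference.

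The difference of Vegfa was above 0 under all 27 alternative settings, but with mouse and slide together as blocks it was only 0.0049 ± 0.39 (adjusted p = 0.995) against day 10 blood, and 8 settings ended the call against day 10 blood and 7 against day 0 blood. Without the TIC array of mouse 832 it was 0.37 (adjusted p = 0.0882), without that of mouse 834 it was 0.47 (adjusted p = 0.0865), and without that of mouse 833 it was 0.75 (adjusted p = 9.36e-05), all against day 10 blood. Over all alternatives the adjusted p ran from 1.07e-05 to 0.995. Leaving out any single day 10 blood array also ended the call (adjusted p 0.0668 to 0.0712), although the difference stayed between 0.52 and 0.53. Relative to day 0 blood, leaving out the day 0 array of mouse 832 or 834 ended it (adjusted p = 0.0701 and 0.0757), as did leaving out the TIC array of mouse 832 or 834 (adjusted p = 0.0847 and 0.0843). With the slide as a block it was 0.28 (adjusted p = 0.5) against day 10 blood and 0.35 (adjusted p = 0.177) against day 0 blood. Within the slide that held 2 TIC and 2 day 0 arrays, the difference was 0.35, with no test.

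The other 2 Vegfa probes also had a higher group mean in the TIC fraction than in either blood. Probe A_52_P249424 (chr17:45489008-45489067) had TIC log2 ratios of 0.69, 0.58 and 0.55, with no low value in mouse 833, against -0.14 to 0.20 in the 6 blood samples. In a fit over every probe, in which 36.2% of all probes passed against day 10 blood and 34% against day 0 blood, its difference from day 10 blood was 0.70 ± 0.09 (adjusted p = 0.000333). Probe A_52_P638895 (chr17:45481019-45481078) gave 0.53, -0.03 and 0.39 in the TIC fraction and a difference of 0.34 ± 0.15 (adjusted p = 0.126). Its blood values ran from -0.29 to 0.08, so the groups overlapped. Their bounds against the bloods lay between 1.52 and 1.64-fold.

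The reference channel was not the same at 2 of the 3 Vegfa probes. At the brightest probe net Cy3 was 19.1 ± 1.01 (SD, n = 3) on the day 0 arrays, 16.4 ± 1.43 on the day 10 blood arrays and 43.5 ± 3.07 on the TIC arrays, where the same kind of reference RNA was labelled. At A_52_P638895 it was 24.3 ± 6.94, 19.9 ± 1.44 and 40.3 ± 5.12. Probe A_52_P249424 did not share this, with 18.4 ± 2.24, 20.5 ± 1.85 and 21.7 ± 3.97. Over all tested genes the median of the mean net Cy3 was 57.8, 53.8 and 63.6 in the same order. A higher Cy3 value lowers the log2 ratio, and its part in the difference between the probes was not tested. Among repeated spots of the brightest probe on 1 array the SD of the log2 ratio was 0.04 to 0.20.

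Flt1, the gene of VEGFR1, was brighter in the TIC fraction in raw intensity and lower in it after loess. Net Cy5 of its brightest probe (A_51_P398723, chr5:147872564-147872623) was 18.4, 15.5 and 7.95 in the day 0 bloods, 2.41, 4.12 and 0.574 in those of day 10, and 102, 59.3 and 39.0 in TIC samples. The 3 TIC values were above background, as were those of mice 832 and 833 on day 0, and none was in day 10 blood. The log2 ratio was -0.61, -0.57 and -0.37, then -0.32, -0.38 and -0.27, then -1.76, -1.23 and -1.45 in the same order. All TIC ratios lay below all blood ratios.

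The log2 ratio of Flt1 differed in the TIC fraction by -1.16 ± 0.14 from day 10 blood (adjusted p = 0.000144) and by -0.97 ± 0.14 from day 0 blood (adjusted p = 0.00048). In Cy5 alone the differences were -0.51 ± 0.12 (adjusted p = 0.00476) and -0.58 ± 0.12 (adjusted p = 0.00289). With each array centred on its median instead, Flt1 was higher in the TIC fraction by 0.72 (adjusted p = 0.00323) and 0.55 (adjusted p = 0.0129). Its median percentile was 74.6 in the day 0 bloods, 50.9 in those of day 10 and 68.4 in TIC samples, so the percentile was above day 10 blood and below day 0 blood without overlap. The direction of Flt1 against blood thus depended on the scaling. Day 10 blood was not above background on any array and the TIC level did not exceed its bound, so no fold is given.

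The other 4 Flt1 probes were dim. Probe A_52_P520859, which lies next to the brightest probe, was above background on all 3 TIC arrays and no blood array, with a difference of 0.03 ± 0.09 (adjusted p = 0.84) from day 10 blood. Probe A_52_P307922 was above background on 2 TIC arrays and differed by 0.00 ± 0.10 (adjusted p = 0.996). The remaining 2 were above background on no array. The fall of the log2 ratio was therefore read from 1 of 5 probes, which was also the brightest in the reference. Net Cy3 was 107 ± 17.8 there and 23.2 ± 5.94 at A_52_P520859 on the TIC arrays.

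Kdr, the gene of VEGFR2, was dim in every sample and did not pass the threshold among the tested genes. Net Cy5 of probe A_51_P316553 (chr5:76214981-76215040, 10 spots) was 11.8, 7.51 and 4.24 in the day 0 bloods, 5.35, 4.44 and 2.94 in those of day 10, and 38.6, 25.8 and 10.6 in TIC samples. Only the day 0 sample of mouse 832 was above background among the bloods, and all 3 TIC samples were. The log2 ratio was 0.07, 0.03 and -0.01 on day 0, 0.11, 0.05 and 0.02 on day 10, and -0.11, -0.08 and -0.14 in the TIC fraction. The difference was -0.17 ± 0.09 (adjusted p = 0.104) against day 10 blood and -0.14 ± 0.09 (adjusted p = 0.169) against day 0 blood. In the fit over every probe the same difference from day 10 blood passed (-0.17 ± 0.06, adjusted p = 0.0422), as it did with no filter (adjusted p = 0.0424) and with array weights (-0.20, adjusted p = 0.0137). In Cy5 alone Kdr was lower, at -1.14 ± 0.15 (adjusted p = 0.000239) and -1.02 ± 0.15 (adjusted p = 0.000456). A second Kdr probe was above background on no array.

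Nrp1, the VEGF co-receptor neuropilin-1, was seen in 2 samples. Of its 3 probes only A_52_P174942 (chr8:131246199-131246258) rose above background, in the TIC samples of mice 832 and 834 with net Cy5 of 36.3 and 15.5. Mouse 833 had 4.0, and the 6 bloods lay between -1.73 and 2.48. In the fit over every probe its difference was 0.35 ± 0.11 (adjusted p = 0.0308) against day 10 blood and 0.29 ± 0.11 (adjusted p = 0.0642) against day 0 blood, and the bound on the level was at least 1.02-fold and 1.06-fold. The other 2 Nrp1 probes had differences of 0.13 ± 0.10 and -0.17 ± 0.08 against day 10 blood (adjusted p = 0.4 and 0.132).

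Tek, the angiopoietin receptor TIE2, was not well above background in Cy5 in any sample. The brighter of its 2 probes, A_52_P234087 (chr4:94233814-94233873), gave net Cy5 between -2.65 and 8.79 over the 9 samples, and the groups overlapped. Its log2 ratio still fell by 0.39 ± 0.07 against day 10 blood in the fit over every probe (-0.39; adjusted p = 0.00173), while the reference was above background on all 9 arrays. The second probe, at which the reference was above background on no array, had a difference of 0.01 ± 0.06 (adjusted p = 0.945). A low log2 ratio was thus obtained for a probe with no measured level in any group.

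The same was seen across the array. Probes not above background in Cy5 on any array but above it in the reference on all 9 numbered 302. Between TIC samples and day 10 blood their median difference in log2 ratio was -0.37 (5th to 95th percentile -1.31 to -0.17) and -0.29 against day 0 blood (-0.96 to -0.10). In Cy5 alone the medians were -1.48 and -1.33. The differences in log2 ratio of Eng, Tek and Plvap lay within the range of these probes in both comparisons. Flt1 and Pecam1 lay within it against day 10 blood and below it against day 0 blood. Kdr lay at its upper edge against day 10 blood and within it against day 0 blood. In Cy5 alone the 5th to 95th percentile of these probes was -1.62 to -1.37 against day 10 blood and -1.44 to -1.22 against day 0 blood. Vegfa, Flt1, Kdr, Eng, Plvap and Cdh5 lay above that Cy5 range in both comparisons. Pecam1 lay within the Cy5 range against day 10 blood and below it against day 0 blood.

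Eng, the TGF-beta family co-receptor endoglin, was above background in the TIC fraction alone. Net Cy5 (A_51_P268563, chr2:32503799-32503858) was 7.45, 2.62 and 0.288 in the day 0 bloods, 0.371, 2.47 and 4.30 in those of day 10, and 39.4, 13.7 and 11.97 in TIC samples. The log2 ratio was -0.13, -0.33 and -0.14 on day 0, -0.14, -0.07 and 0.07 on day 10, and -0.33, -0.38 and -0.32 in the TIC fraction. TIC values lay below all day 10 values and overlapped day 0. Eng passed the detection filter through the TIC arrays alone, so its call is against bloods with no measured level and is a description. The difference was -0.30 ± 0.10 (adjusted p = 0.0296) against day 10 blood and -0.14 ± 0.10 (adjusted p = 0.242) against day 0 blood. With the slide as a block it was -0.22 (adjusted p = 0.452) against day 10 blood. The call was lost without the day 10 blood array of mouse 833 or 834 or the TIC array of mouse 832 or 834 (adjusted p 0.0549 to 0.109, against a range of 0.00015 to 0.801 over all alternatives). Median centring gave 0.09 (adjusted p = 0.611).

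Pecam1, the adhesion molecule PECAM-1 of endothelium, platelets and leukocytes, was the member best detected in blood. Net Cy5 of A_51_P400868 (chr11:106497165-106499018, an interval longer than a probe as the files give it, 10 spots) was 49.8, 33.0 and 13.3 in the day 0 bloods, 10.6, 12.3 and 5.08 in those of day 10 and 22.4, 14.2 and 8.09 in TIC samples. It was above background on 3 day 0, 2 day 10 and 2 TIC arrays, and the raw intensities of the groups overlapped. The log2 ratio was 0.37, 0.14 and 0.07, then 0.15, 0.15 and 0.03, then -1.27, -1.05 and -1.06. Every TIC ratio lay below every blood ratio.

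Pecam1 fell in the TIC fraction by 1.23 on the log2 scale against day 10 blood (-1.23 ± 0.12; adjusted p = 2.79e-05) and by 1.32 against day 0 blood (-1.32 ± 0.12; adjusted p = 2.77e-05). In Cy5 alone it was lower, at -1.44 ± 0.18 (adjusted p = 0.000212) and -1.65 ± 0.18 (adjusted p = 0.000168). Its median percentile was 84.6 in the day 0 bloods, 84.9 in those of day 10 and 50.8 in TIC samples. Within the slide that held both groups the difference from day 0 blood was -1.31, with no test. With median centring Pecam1 stayed lower, at -0.20 (adjusted p = 0.259) and -0.51, and with no normalization at all it was 0.11 (adjusted p = 0.591) and -0.23. Its second probe, above background on no array, had differences of -0.12 and -0.16.

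Plvap, a protein of the diaphragms in vessel fenestrae, ran like Flt1 in raw intensity, in the loess log2 ratio and under median centring. Net Cy5 (A_51_P414653, chr8:74426967-74427026) was 17.9, 11.4 and 8.52 in the day 0 bloods, 4.87, 8.17 and 5.66 in those of day 10, and 81.6, 47.6 and 67.7 in TIC samples. The log2 ratio was -0.64, -0.70 and -0.29 on day 0, -0.20, -0.18 and -0.07 on day 10, and -1.55, -1.31 and -1.09 in the TIC fraction. TIC ratios lay below all blood ratios, though the TIC intensities lay above all blood intensities. The difference was -1.17 ± 0.15 (adjusted p = 0.000194) against day 10 blood and -0.78 ± 0.15 (adjusted p = 0.00225) against day 0 blood. Median centring turned it to 0.70 (adjusted p = 0.00127) and 0.68 (adjusted p = 0.00182). Its median percentile was 74.2, 79.4 and 66.8, so unlike Flt1 it did not lie above day 10 blood by percentile. With the deposited log ratio Plvap stayed lower against day 10 blood, at -1.28 (adjusted p = 0.0068), where Flt1 was 0.04.

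Cdh5, the endothelial junction protein VE-cadherin, gave log2 ratio differences of opposite sign on its 2 probes, of which only 1 was above background on any array. At A_52_P248604 (chr8:107033388-107033447) net Cy5 was 1.13, 3.82 and 4.23 in the day 0 bloods, 0.242, 0.914 and 0.127 in those of day 10, and 70.6, 30.4 and 30.1 in TIC samples, which alone was above background. The log2 ratio was -0.13 to 0.03 in the 6 bloods and 0.17, -0.04 and 0.07 in the TIC fraction. The differences of 0.16 ± 0.10 (adjusted p = 0.175) and 0.12 ± 0.10 (adjusted p = 0.314) did not pass, and the bound on the level was at least 1.08-fold and 1.11-fold. Median centring gave 0.45 (adjusted p = 0.0354) and 0.43 (adjusted p = 0.0431), while Cy5 alone gave -0.76 ± 0.14 (adjusted p = 0.00109) and -0.62 ± 0.14 (adjusted p = 0.0034). The other probe (A_51_P309056, chr8:107032728-107032787) was above background in Cy5 on no array and in the reference on all 9. It gave -0.57 ± 0.10 (adjusted p = 0.00258) against day 10 blood, within the 5th to 95th percentile of such undetected probes (-1.31 to -0.17).

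**Figure D2:**
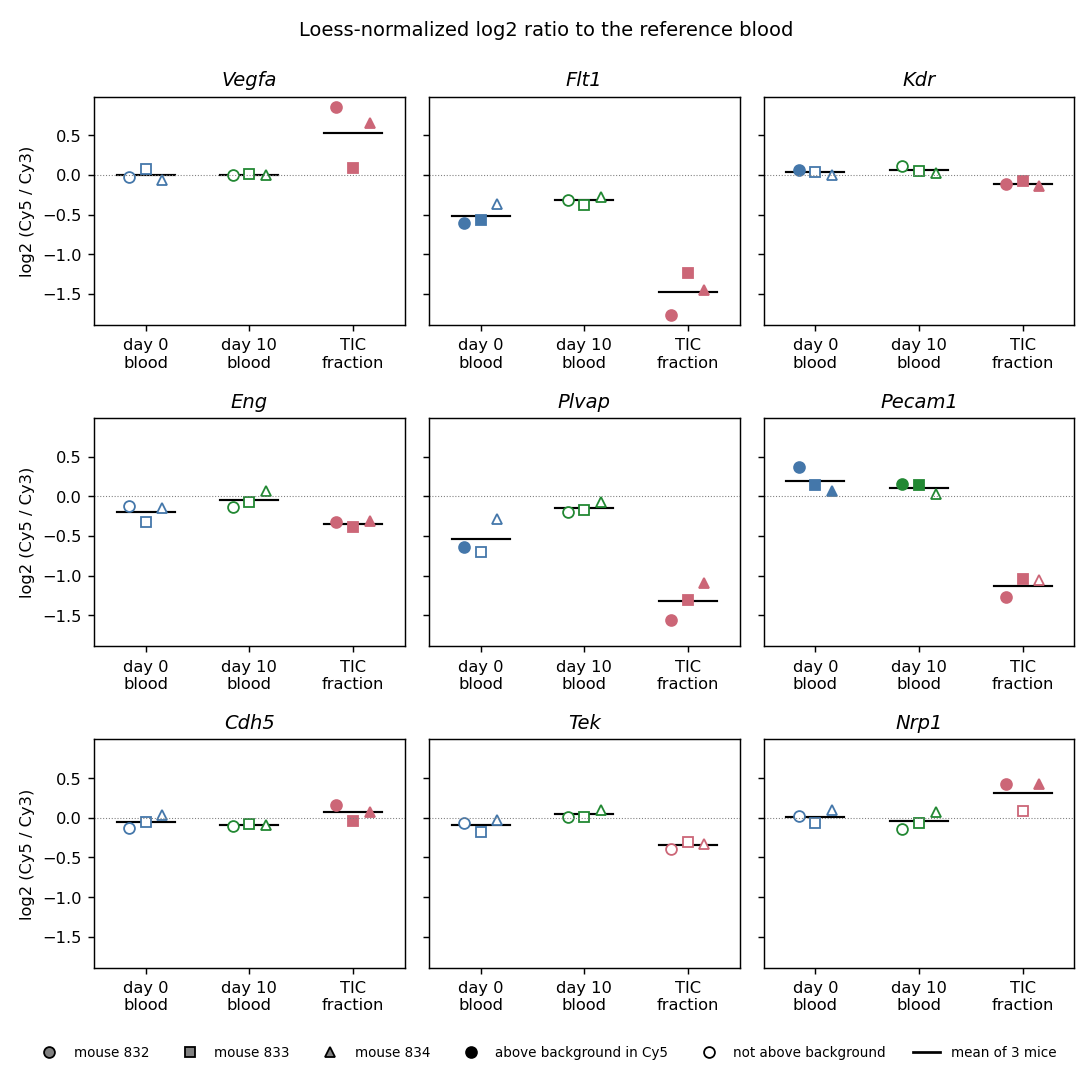
Loess-normalized log2 ratio of Cy5 sample over Cy3 reference for the 9 genes, on 1 common vertical axis, with symbols as for the intensities and a line at the mean of 3 mice. In the TIC fraction Flt1, Plvap and Pecam1 lie between -1.76 and -1.05, while Vegfa reaches 0.86 and is 0.09 in mouse 833.

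Taking the tested members as a group, 5 of 7 passed the threshold between the TIC fraction and day 10 blood, 1 higher and 4 lower, where 67.6% of all tested genes passed, 34.4% higher and 33.1% lower. In the comparison with day 0 blood 4 of 7 passed, 1 higher and 3 lower, beside 65.4% of all tested genes, 31.7% higher and 33.6% lower. The share called was close to that background in both comparisons. Of the 7, Vegfa, Eng and Cdh5 passed the filter through the TIC arrays alone. Of the 4 called lower against day 10 blood, only Pecam1 was above background on any day 10 blood array. The median difference of the 7 was -0.30 and -0.14, and that of all tested genes 0.07 and 0.01. Both comparisons use the same TIC arrays.

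The split between higher and lower followed the scaling. In Cy5 alone all 7 passed in both comparisons, 1 higher and 6 lower. On this scale the 302 undetected probes were lower too, with medians of -1.48 against day 10 blood and -1.33 against day 0 blood. Of all genes 74.7% passed against day 10 blood (40.4% higher, 34.3% lower) and 72.1% against day 0 blood (37.3% and 34.8%). With median centring 4 were higher and 0 lower against day 10 blood, where 75.3% of all genes passed, 72.1% higher and 3.25% lower, and the median of all genes was 1.38. Relative to day 0 blood 4 were higher and 1 lower, beside 71.9% of all genes, 66.1% higher and 5.73% lower. With the deposited log ratios 3 passed in each comparison, beside 73% and 63.6%, and Flt1 was 0.04 (adjusted p = 0.937) against day 10 blood. Relative to the median of all genes under median centring, Vegfa (1.77) was the member that lay above it against day 10 blood.

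**Figure D3:**
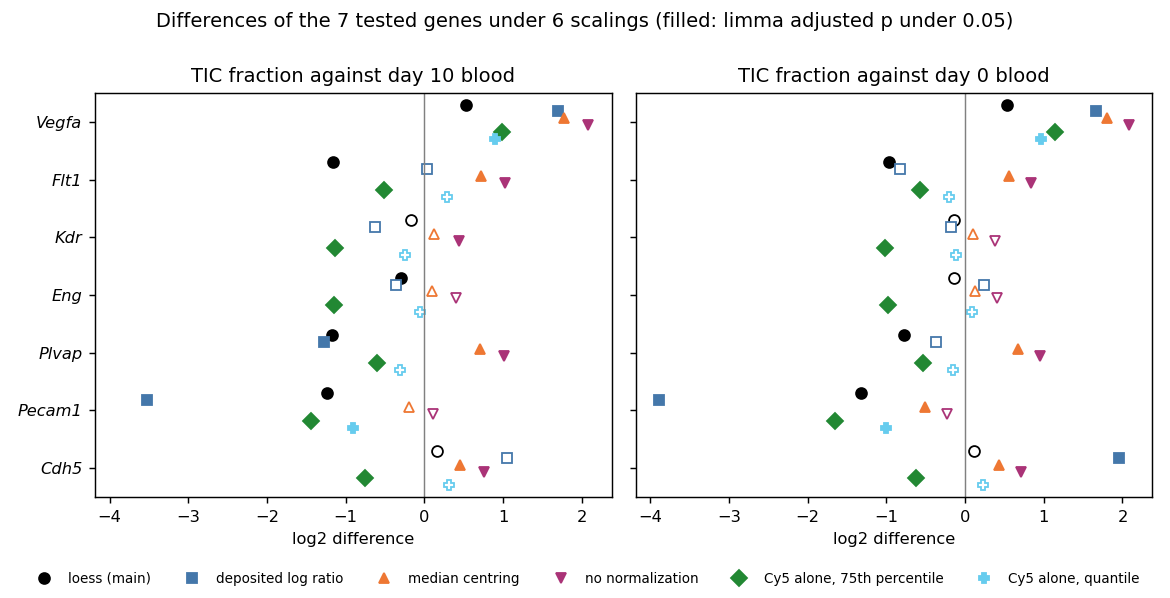
Log2 difference of the TIC fraction from day 10 blood and from day 0 blood for the 7 tested genes under 6 scalings, filled where the limma adjusted p was under 0.05. Vegfa lies above 0 under all 6 scalings in both comparisons, while Flt1 and Plvap lie below 0 under loess and above 0 under median centring.

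The position of each probe within its own array needs no reference and no normalization curve. By percentile of net Cy5 the TIC arrays lay above all day 10 blood arrays for Vegfa, Flt1 and Cdh5 and below them for Kdr and Pecam1, beside 39.9% and 24.9% of all genes. Against day 0 blood they lay above for Vegfa and Cdh5 and below for Flt1 and Pecam1, beside 36.3% and 28% of all genes. Of the members only Pecam1 was above background in day 10 blood, so the other percentiles there, and those of Vegfa and Cdh5 in day 0 blood, are ranks among undetected spots. Pecam1, detected in both bloods, was below both by percentile, by loess log2 ratio and in Cy5 alone. Each of these measures depends on the other probes of the array. Against day 10 blood, Pecam1 was -0.20 (limma adjusted p = 0.259) under median centring and 0.11 (adjusted p = 0.591) with no normalization. Its Cy5 difference of -1.44 lay within the range of the undetected probes (-1.62 to -1.37). Against day 0 blood, Pecam1 was -0.51 and -0.23 under the same settings. Its Cy5 difference of -1.65 lay below their range.

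**Figure D4:**
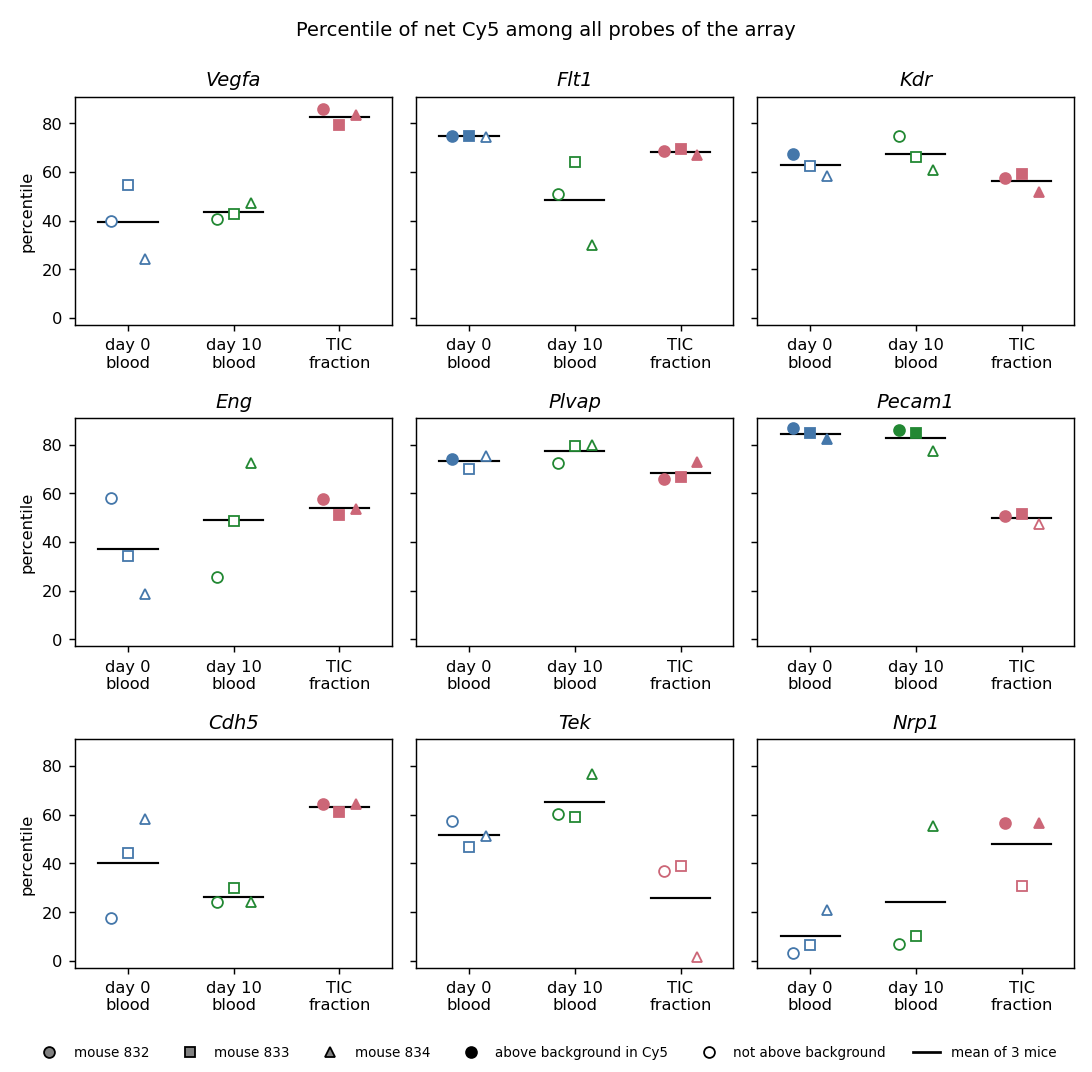
Percentile of net Cy5 among all probes of the same array for 1 probe of each of the 9 genes, with symbols as for the intensities and a line at the mean of 3 mice. Vegfa moves from at most 54.5 in blood to at least 79.1 in the TIC fraction, and Pecam1 from at least 77.2 to at most 51.7.

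Between day 0 and day 10 blood, 0 of the 7 members passed limma's threshold, nor did any of the 14253 genes (0%), of which 2104 had an unadjusted p under 0.05 and the smallest adjusted p was 0.0514. The member with the largest difference was Plvap at 0.39 ± 0.15 (adjusted p = 0.284), followed by Flt1 at 0.19 ± 0.14 (adjusted p = 0.64) and Eng at 0.15 ± 0.10 (adjusted p = 0.576). Pecam1, the member detected in both bloods, differed by -0.09 ± 0.12 (adjusted p = 0.869), and Vegfa by 0.01 ± 0.18 (adjusted p = 0.996). In Cy5 alone 0 of 7 passed as well, with Pecam1 at -0.21 ± 0.18 (adjusted p = 0.994). The median difference in log2 ratio of the 302 undetected probes was 0.11.

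Other genes of the VEGF and angiopoietin pathways were read from a list of 30, of which 21 were tested. Against day 10 blood 11 were higher and 4 lower in the TIC fraction, with a median of 0.39, beside 34.4% higher and 33.1% lower among all tested genes. As 9 of the 21 passed the filter through the TIC arrays alone, the count of higher genes is a description, as in the lists that follow. Vegfc, the ligand of lymphatic growth, was at least 2.69-fold higher (adjusted p = 7.56e-06), and Spred1, an inhibitor of growth factor signalling, at least 2.8-fold (adjusted p = 5.61e-06), both above background in the TIC fraction alone. Plcg1, the phospholipase downstream of VEGFR2, was lower, at -1.59 ± 0.13 (adjusted p = 1.23e-05), and Thbs1, an inhibitor of vessel growth also stored in platelets, at -1.40 ± 0.21 (adjusted p = 0.000491). With median centring both turned to higher values, 0.38 for Plcg1 and 1.33 for Thbs1. Under median centring 18 of the 21 were higher and 0 lower, beside 72.1% and 3.25% of all tested genes. In Cy5 alone 7 were higher and 9 lower, beside 40.4% and 34.3%. Relative to day 0 blood 11 were higher and 5 lower by loess log2 ratio, with a median of 0.28, beside 31.7% and 33.6% of all tested genes.

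Of 30 other endothelial genes 20 were tested, and 5 were higher and 9 lower against day 10 blood, with a median of -0.13, where 34.4% and 33.1% of all tested genes were called. Median centring gave 12 higher and 3 lower, with a median of 0.91. Of all tested genes 72.1% were then higher and 3.25% lower, with a median of 1.38. Among the 20 genes, 9 passed the filter through the TIC arrays alone. Procr, the protein C receptor, was at least 7.24-fold higher (adjusted p = 0.000105) and Ecscr, an endothelial surface protein, at least 7.02-fold (adjusted p = 0.000159). Both were above background on no blood array, with mean net Cy5 in the TIC fraction of 2903 and 4024. Vwf, von Willebrand factor, which platelets also carry, was lower, at -7.06 ± 0.32 (adjusted p = 1.11e-06). Tal1, a blood and endothelial transcription factor, was lower at -3.53 ± 0.17 (adjusted p = 1.28e-06) and above background on no TIC array. On the scale of the folds, Tal1 in day 10 blood stood at 8.89-fold its undetected TIC signal. Vwf and Tal1 stayed lower under median centring, at -1.93 and -1.18. Against day 0 blood 6 were higher and 7 lower, with a median of -0.06, beside 31.7% and 33.6% of all tested genes.

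Of 20 hypoxia-inducible genes, all were tested, and 9 were higher and 4 lower against day 10 blood, with a median of 0.36, beside the same 34.4% and 33.1% of all tested genes. Under median centring 17 were higher and 0 lower, with a median of 2.08. Of all tested genes 72.1% were then higher and 3.25% lower, with a median of 1.38. Among the 20 genes, 4 passed the filter through the TIC arrays alone. Ddit4, a stress-induced inhibitor of mTOR signalling, was higher by 1.41 ± 0.12 (adjusted p = 1.6e-05), with mean net Cy5 of 82.0 in the day 0 bloods, 37.2 in those of day 10 and 10620 in TIC samples. P4ha2, a collagen prolyl hydroxylase subunit, was above background on no blood array and at least 2.23-fold higher in the TIC fraction (adjusted p = 2.22e-05). Car9, a carbonic anhydrase, was lower, at -2.71 ± 0.22 (adjusted p = 1.1e-05) and Ndrg1 at -2.36 ± 0.49 (adjusted p = 0.00287), and both were higher under median centring (0.41 and 1.70). Relative to day 0 blood 8 were higher and 3 lower, with a median of 0.30, beside 31.7% and 33.6% of all tested genes. Pfkfb3, a regulator of glycolysis, was among the lower at -1.05 ± 0.20 (adjusted p = 0.00209).

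Marker lists of other cells were read beside the members. Of 12 platelet genes 11 were tested and all 11 were lower in the TIC fraction in both comparisons, with a median of -5.48 against day 10 blood. Among all tested genes 33.1% were lower against day 10 blood and 33.6% against day 0 blood. Median centring gave 9 of the 11 lower and 0 higher in both comparisons, with a median of -1.61 against day 10 blood. Of all tested genes 3.25% were then lower and 72.1% higher against day 10 blood, and 5.73% and 66.1% against day 0 blood. Ppbp, a platelet chemokine, was lower, at -9.57 ± 0.27 (adjusted p = 3.55e-07) and Treml1, a platelet granule receptor, at -7.73 ± 0.28 (adjusted p = 5.46e-07). Their summed net Cy5 was 3513 to 14810 in the day 0 bloods, 2723 to 6778 in those of day 10 and 277 to 1987 in TIC samples. The platelet part in the fall of Pecam1 was not tested.

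All 15 macrophage genes were above background on some TIC array. Against day 10 blood 8 were higher and 0 lower, with a median of 0.44, beside 34.4% and 33.1% of all tested genes, and 7 of the 15 passed the filter through the TIC arrays alone. Median centring gave 14 higher and 0 lower, beside 72.1% and 3.25% of all tested genes. Aif1 was at least 16.3-fold higher (adjusted p = 3.41e-06) and Mrc1 at least 2.59-fold (adjusted p = 3.9e-05) than the bound of day 10 blood, where neither was above background. C1qc was at least 33.3-fold higher than the bound of day 0 blood (adjusted p = 4.27e-05). Summed net Cy5 was 333 to 717 in the day 0 bloods, 114 to 199 in those of day 10 and 9281 to 142000 in TIC samples. Their part in the values of Vegfa and Flt1 was not tested.

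Hepatoma and hepatocyte genes were bright in the TIC fraction as well. Of 15 listed genes 11 were tested, and 9 were higher and 2 lower in both comparisons, with a median of 1.82 against day 10 blood. Among all tested genes 34.4% were higher and 33.1% lower against day 10 blood, and 31.7% and 33.6% against day 0 blood. Median centring gave 8 higher and 0 lower against day 10 blood, and 9 higher and 1 lower against day 0 blood. Of all tested genes 72.1% were then higher and 3.25% lower against day 10 blood, and 66.1% and 5.73% against day 0 blood. Of the 11 genes 6 passed the filter only through TIC samples. Afp, a fetal liver protein of many hepatomas, was higher by 5.35 ± 0.28 (adjusted p = 1.72e-06) and Fgb, against day 0 blood, by 2.95 ± 0.14 (adjusted p = 2.07e-06). Igfbp1, above background on no blood array, was at least 95.2-fold higher than the bound of day 10 blood (adjusted p = 1.03e-06). Ahsg was lower, at -3.51 ± 0.23 (adjusted p = 4.47e-06) and H19 at -1.38 ± 0.16 (adjusted p = 0.00011). Median centring gave -0.56 for Ahsg and -0.08 for H19, and H19 was above background on 1 array in each group. Summed net Cy5 was 73.5 to 275, 59.5 to 97.0 and 76320 to 144400 in the 3 groups. Tumour cells as a source of the Vegfa signal were not tested and cannot be told apart from inflammatory cells in this fraction.

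Of 13 mural cell and fibroblast genes 10 were tested, with 3 higher and 6 lower against day 10 blood and a median of -1.003, beside 34.4% and 33.1% of all tested genes. Median centring turned this to 6 higher and 0 lower, with a median of 0.67. Of all tested genes 72.1% were then higher and 3.25% lower, with a median of 1.38. Among the 10 genes, 5 passed the filter through the TIC arrays alone. Dcn was at least 108-fold higher (adjusted p = 2.01e-06) and Pdgfrb, the pericyte receptor, at least 1.16-fold (adjusted p = 0.03) than the bound of day 10 blood, and Des at least 1.07-fold (adjusted p = 0.0154) than that of day 0 blood. In Cy5 alone Dcn was higher, at 8.31, while Pdgfrb was at -0.72 and, against day 0 blood, Des at -0.94. Tagln was lower, at -5.92 ± 0.40 (adjusted p = 5.04e-06). Col1a1 had a log2 ratio difference of -1.69 ± 0.17 (adjusted p = 3.66e-05) that median centring turned to 0.79. It was above background on no blood array and its TIC level did not exceed the bound of day 10 blood, so no fold is given. Summed net Cy5 was 834 to 2535, 676 to 1023 and 20390 to 142200. Of 6 lymphatic endothelial genes Prox1 alone was tested and was at least 1.24-fold higher than the bound of day 10 blood (adjusted p = 0.0244). In Cy5 alone the difference of Prox1 was -0.24. Of 7 liver sinusoidal genes 4 were tested, with 2 higher, Mrc1 and Fcgr2b (1.29 ± 0.39, adjusted p = 0.0166), and 1 lower, Clec4g (-5.43 ± 0.35, adjusted p = 3.73e-06). Each of these lists had 0 called genes between the bloods.

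The genes whose centred log2 ratios lay nearest to 6 of the tested members over the 9 arrays were named as a description, by Euclidean distance. For Vegfa they were Ltc4s, Klrc3 and Cep44 at 0.15, 0.16 and 0.16, where the median distance to all tested genes was 1.42. For Flt1 they were Osbpl8, Pygb and Mrnip (0.23, 0.23 and 0.24, median 1.99), for Plvap Zgpat, Flt3l and Mettl15 (0.28, 0.30 and 0.31, median 1.97), and for Pecam1 Dclk2, Akap10 and Septin11 (0.24, 0.29 and 0.30, median 2.19). Kdr lay nearest to Pde6h, Clip2 and Cemip, and Eng to Cpeb1, Ngfr and Olfr549. The arrays share the reference, slides and groups, and no member was among the nearest 3 of another.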

How the data were processed

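For each of 9 two-colour arrays the authors deposited a scanner table, which gives both channels' spot intensity, the intensity of the local background and the log10 ratio of Cy5 sample over Cy3 reference. Agilent Feature Extraction 10.5.1.1 wrote these tables on design build mm8, per the file headers (version 9.1.3.1 in the submitters' processing notes). The deposited value table held the same log10 ratios (largest difference 0). Depth is not defined for arrays, and 3 mice a group limit the precision. No spot was saturated.

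From the mean spot and median background intensities, background was corrected by normexp with an offset of 50. Spots with a non-uniform local background (0 to 103 an array) were set aside. Log2 ratios were normalized by loess within arrays, with control and outlier spots at weight 0, and spots of 1 probe were averaged. A probe was kept where 0.5 or more of its spots passed the scanner's test against background in Cy5 on 3 or more arrays (20153 probes, 19995 with values on all arrays), and the brightest probe stood for each of 14253 genes. Names came through RefSeq accessions of GRCm38.p6 for 23374 of 41174 probes, symbols for 6733 and synonyms for 2919, and 8148 kept the name in the files. The exon or UTR that each probe lies in was not analysed here.

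The test was limma (version 3.58.1, R 4.3.3), fitted to the 9 arrays together with group as its only term (6 residual degrees of freedom, Benjamini-Hochberg threshold 0.05), and the fit was tested on simulated data. The SE rests on 1 spread for all groups. Samples of 1 number come from the same mouse. Their deviations from the group means correlated at -0.06 to 0.35 over 9 pairs, with 3 over 0.1, the 3 pairs of blood with blood. The mouse as a block was an alternative, as were other background corrections, normalizations, filters, probe rules, slide blocks and each array left out.

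Members and lists were chosen with earlier results of these data known. All 9 members are named with every probe. In each comparison each list gives at most 2 higher and 2 lower genes with the smallest p under the threshold, and each tested member its 3 nearest genes, which for Cdh5 are not reported here.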

Additional observations from a re-analysis of the deposited data

How the results depend on the processing

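The 7 tested members were refitted under 27 alternatives, and of 567 values in the 3 comparisons 468 kept their direction and their side of the threshold, 38 fell out of it, 12 came into it and 49 changed sign. Pecam1 stayed below 0 in the TIC fraction under all alternatives against day 0 blood and Vegfa above 0 in both comparisons, but with mouse and slide together Vegfa was 0.0049 (adjusted p = 0.995) against day 10 blood. With the mouse as replicate block the members called were 5 against day 10 blood and 4 against day 0 blood, as without it, and no member's call changed. Of all 14253 tested genes 9435 and 9102 were called with that block. The added alternative with normexp only and no normalization was chosen after seeing the data.

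Against day 10 blood, with which the TIC arrays shared no slide, 5 members were called. Agilent processed signals and the deposited log ratio gave 3, Cy5 alone with quantile normalization 2, no filter 8 of 9, the slide as block 3, and mouse and slide together 0, the last with few degrees of freedom left. Of all 14253 tested genes, processed signals called 10381, the deposited ratio 10400 and Cy5 quantile 8296. With no filter 10713 of 27471 genes were called, and the 8 members included Cdh5 at a probe above background on no array. Leaving out 1 array gave 3 to 5. The 3 came without the day 10 blood array of mouse 833 or 834, or the TIC array of mouse 832 or 834. Against day 0 blood, 4 were called, with 7 in Cy5 alone at the 75th percentile, 2 with quantile, 2 with mouse and slide, and 3 to 4 with 1 array left out. Of all 14253 tested genes 10275 were called in Cy5 alone at the 75th percentile and 7149 with quantile. No member was above background on all 9 arrays, so that filter gave no value for them. Between the bloods 0 members were called in every alternative run, while the count over all genes moved from 0 to as many as 1284 (array weights), with 1058 without the TIC array of mouse 833, 763 with Agilent processed signals, 757 with the deposited ratio, 747 with only the 2 groups compared, 447 with Cy5 quantile, 174 with offset 16, 147 with the filter on all 9 arrays, 32 with the replicate block, 18 without the day 0 array of mouse 834, 15 with a random slide block and 11 with all passing probes. For the TIC fraction against day 10 blood 9632 genes became 4274 with the slide block, 2956 with the filter on all arrays and 1110 with mouse and slide. Against day 0 blood 9320 became 2910 and 4432 with the last 2.

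Changes of sign against day 10 blood were 0.70 for Plvap, 0.72 for Flt1, 0.13 for Kdr and 0.092 for Eng with median centring, and 1.01, 1.03, 0.43 and 0.40 in that order, with 0.11 for Pecam1, with no normalization. Flt1 was 0.036 with Agilent processed signals and with the deposited ratio and 0.28 with quantile. Cdh5 was -0.76 in Cy5 alone and -0.57 with no filter, where its other probe was used. Against day 0 blood they were 0.68 for Plvap, 0.55 for Flt1, 0.13 for Eng and 0.10 for Kdr with median centring, and 0.96, 0.84, 0.41 and 0.38 with no normalization. Eng was 0.24 with processed signals and the deposited ratio and 0.091 with quantile, and Cdh5 was -0.62 in Cy5 alone and -0.36 with no filter.

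Between the bloods, where no member was called, signs turned around values near 0. Flt1 was -0.86 with processed signals and the deposited ratio, -0.17 with median centring, -0.062 in Cy5 alone, -0.48 with quantile and -0.19 with no normalization. Cdh5 was 0.73 with processed signals, 0.90 with the deposited ratio, 0.13 in Cy5 alone and 0.21 with no filter. Plvap and Kdr were -0.027 and -0.024 with median centring and -0.054 and -0.05 with no normalization. Vegfa was -0.0056 with all spots kept, -0.033 with the deposited ratio, -0.023 as the mean over probes, -0.13 with all passing probes, -0.019 to 0.051 with 1 array left out and -0.13 to 0.23 over all alternatives. Pecam1 was 0.039 with the slide as block and -0.15 to 0.0021 with 1 array left out, the last without the day 0 array of mouse 832. The cause of these changes was not tested. Signals of most members in blood lay too near the background for a level to be read.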
